A study of Mus musculus with 6 samples.

Results

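Heparan sulfate sulfotransferases are the enzymes of the Golgi that place sulfate groups on growing heparan sulfate chains, and 10 of their genes were followed here among 55471 gene identifiers. The genes are Ndst1, Ndst2, Hs2st1, Hs6st1, Hs6st2, Hs6st3, Hs3st1, Hs3st2, Hs3st3a1 and Hs3st3b1, matched by symbol. The family was chosen with the genotype contrast already known, in which Hs3st3a1 was among the strongest decreases. The genotype differences of the members are therefore given as a description, with no p-value. Calls among them are counted as the fit over all genes made them, and support nothing.

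RNA was sequenced from the rostral-most telencephalic primordium of mouse embryos at E11.5, in 3 control and 3 Rx-Dicer samples. Rx-Dicer embryos (RxCre-DicerF/F) carried floxed Dicer alleles and a Cre recombinase under Rx regulatory sequences. Control embryos carried the same floxed alleles without Cre (DicerF/F), although their labels also read WT. Both genotypes thus shared the floxed Dicer background, which was kept in C57BL/6, whereas the Rx3-Cre line was kept in CD1. According to the study, Rx-Cre recombination at this age was strongest in the rostral and ventral telencephalon and weaker in the neocortex, and a piece can hold cells that kept Dicer. The study describes the replicates as independent, but it is not stated whether each was prepared from 1 embryo.

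Heparan sulfate is a long sugar chain carried by core proteins at the cell surface and in the extracellular matrix. N-deacetylation and N-sulfation by the Ndst enzymes come first and mark the stretches that are then sulfated at the 2-O, 6-O and finally 3-O positions. The pattern of sulfates sets which growth factors a chain binds, among them FGFs, Wnts and Shh, and these signals pattern the early forebrain. The 3-O sulfates are the rarest, and their enzymes form the largest branch of the family.

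Libraries held 34471501 to 48373468 counts on genes, and total counts of the genotypes overlapped. Dicer1, the targeted gene, had 6355, 7070 and 6270 normalised counts in controls 1 to 3 and 4777, 7002 and 4644 in Rx-Dicer 1 to 3. These counts include exons outside the deleted part, so they check the labels only in part. The library labelled Rx-Dicer 2 was at the control level for Dicer1, so the main differences are also given without it. The telencephalic markers Emx2, Pax6, Sox2, Nes and Lhx2 were present in every library, and Emx2, for example, had 4997 to 9679 normalised counts in the controls and 5466 to 9840 in Rx-Dicer samples. Markers of mesenchyme, blood, endothelium, surface epithelium and microglia were also above 0 in every library, so a piece held more than neuroepithelium. In such bulk samples, fewer cells of a type and less RNA per cell cannot be told apart.

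In these pieces the Ndst, 2-O and 6-O genes had overlapping read counts in the genotypes, whereas the closely related 3-O genes Hs3st3a1 and Hs3st3b1 were lower in every Rx-Dicer sample. Of the 10 members, 8 had enough counts to be tested, 0 were called higher and 2 were called lower by DESeq2 (adjusted p under 0.05, with the minimum fold of the study). Over all 17128 genes tested, 1.75% were called higher and 1.18% lower. All 3 Rx-Dicer values lay below the 3 control values for 2 members and above them for 0 members, against 10.7% and 8.55% of genes tested. Because the members were chosen on this contrast, nothing is read from these shares. The median log2 fold change of the 8 tested members was 0.040, against -0.00087 over all genes tested. Over all genes, 2324 had an unadjusted p under 0.05 by DESeq2 and 2313 by edgeR's quasi-likelihood test, which called 0.0% of 17954 genes lower, and 0 members.

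**Figure D1:**
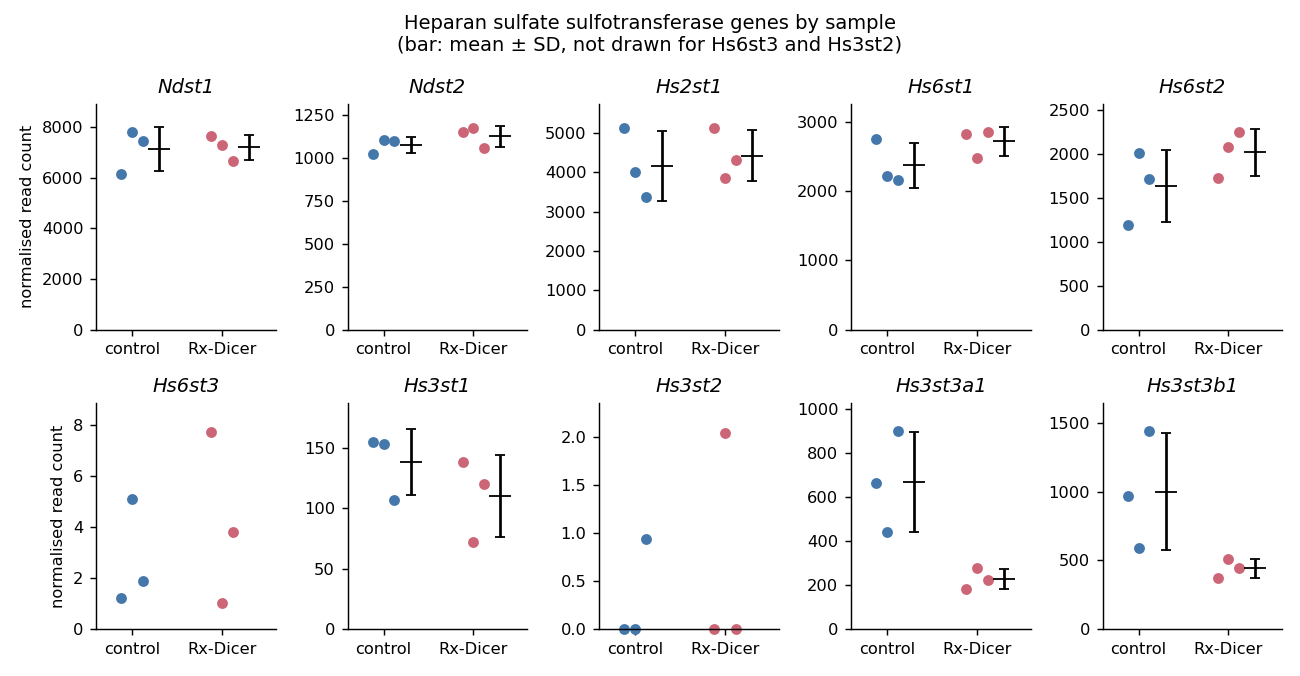
Normalised read counts of the 10 sulfotransferase genes, with 1 panel per gene, 1 point per sample (blue control, red Rx-Dicer, replicates 1 to 3 from left to right) and the mean ± SD of each genotype beside the points (n = 3, not drawn for Hs6st3 and Hs3st2). Hs3st3a1 and Hs3st3b1 have all 3 Rx-Dicer points below the 3 control points, and the points of the genotypes overlap in the other 8 panels.

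The first sulfation step is carried out by Ndst1 and Ndst2, which each remove acetyl groups from glucosamine and put sulfate in their place. Ndst1 (ENSMUSG00000054008, GRCm38 chr18:60684494-60748650, minus strand) had 6143, 7831 and 7458 normalised counts in the controls and 7647, 7310 and 6677 in Rx-Dicer samples. The log2 fold change between genotypes was 0.013 ± 0.13 (SE), and the 95% interval ran from -0.25 to 0.27. The lowest and the highest value both belonged to controls, and the genotypes overlapped. Ndst2 (ENSMUSG00000039308, chr14:20723730-20734562, minus strand) had 1022, 1105 and 1099 counts in the controls and 1152, 1171 and 1057 in Rx-Dicer samples. Its log2 fold change was 0.066 ± 0.13, with an interval of -0.18 to 0.31. Ndst2 had the smallest spread for its mean of the 8 tested members, with an SD of 46.1 around a control mean of 1075, and its genotypes overlapped.

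Hs2st1, the only 2-O-sulfotransferase gene, acts mainly on iduronic acid. Hs2st1 (ENSMUSG00000040151, chr3:144429706-144570181, minus strand) had 5128, 4009 and 3362 counts in the controls and 5112, 3845 and 4307 in Rx-Dicer samples. Its log2 fold change was 0.086 ± 0.17 (interval -0.25 to 0.43). Control 1 and Rx-Dicer 1 were nearly equal and the highest of the 6, and the spread within controls was wider than the difference between genotypes. Without control 1 the log2 fold change was 0.26.

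The 6-O-sulfotransferases act on glucosamine. Hs6st1 (ENSMUSG00000045216, chr1:36068400-36106446, plus strand) had 2754, 2215 and 2161 counts in the controls and 2829, 2486 and 2852 in Rx-Dicer samples, a log2 fold change of 0.20 ± 0.14 (interval -0.08 to 0.47). Control 1 exceeded Rx-Dicer 2, so the genotypes overlapped. Hs6st2 (ENSMUSG00000062184, chrX:51387212-51681856, minus strand) had 1192, 2002 and 1711 counts in the controls and 1726, 2073 and 2246 in Rx-Dicer samples, a log2 fold change of 0.30 ± 0.19 (interval -0.07 to 0.68). The value of control 2 lay above that of Rx-Dicer 1, so these genotypes overlapped too. Hs6st3 (ENSMUSG00000053465, chr14:119138341-119869815, plus strand) was near the limit of detection, with 1, 5 and 2 raw counts in the controls and 9, 1 and 4 in Rx-Dicer samples. With 22 raw counts in all, Hs6st3 had no adjusted p from DESeq2, and no difference was detectable at this depth.

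The last step, 3-O-sulfation of glucosamine, was represented by 4 genes of very different level. Hs3st1, which makes the antithrombin-binding type of chain, lay on chr5:39613935-39755475 (ENSMUSG00000051022, minus strand). It had 155.1, 152.8 and 107.1 counts in the controls and 138.1, 72.3 and 119.8 in Rx-Dicer samples. The log2 fold change of Hs3st1 was -0.32 ± 0.30 (interval -0.92 to 0.27), and the genotypes overlapped. Hs3st2 (ENSMUSG00000046321, chr7:121391859-121501770, plus strand), a 3-O gene known from mature neurons, had 3 raw counts over all 6 libraries, 1 in control 3 and 2 in Rx-Dicer 2. A library without a count allows a level of up to 0.0620 to 0.0870 CPM, depending on its depth (3 counts, counting error only), and no fold is given for Hs3st2.

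Hs3st3a1 and Hs3st3b1 encode enzymes with nearly the same catalytic domain. Hs3st3a1 (ENSMUSG00000047759, chr11:64435332-64522841, plus strand) had 664.5, 442 and 897.1 counts in the controls and 181, 275.1 and 223.4 in Rx-Dicer samples. The means were 668 ± 228 and 226 ± 47.1 (SD, n = 3), which is -1.56 ± 0.26 on the log2 scale (interval -2.06 to -1.06), or 2.95-fold lower. The highest Rx-Dicer value, that of Rx-Dicer 2, stayed below the lowest control value, that of control 2. Hs3st3b1 (ENSMUSG00000070407, chr11:63885792-63922290, minus strand) had 969.8, 592.8 and 1444 counts in the controls and 371.4, 508.4 and 443 in Rx-Dicer samples. Its means were 1002 ± 426 and 441 ± 68.5, a log2 fold change of -1.19 ± 0.27 (interval -1.71 to -0.67), or 2.27-fold lower. The same libraries bounded the gap, which was narrower here, and in both genes control 3 was the highest and control 2 the lowest control. Rx-Dicer 1, 3 and 2 stood in that ascending order in both genes.

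Single libraries mattered for the size of these differences. Without the library labelled Rx-Dicer 2, the log2 fold change was -1.72 for Hs3st3a1 and -1.30 for Hs3st3b1. Without control 3 it was -1.29 for Hs3st3a1 and -0.82 for Hs3st3b1. Without control 2 it was -1.79 and -1.45.

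Marker levels are given beside this pair because the control libraries differed in them. The 8 mesenchyme markers summed to 1200, 784 and 1800 CPM in controls, the same order of samples as for Hs3st3a1 and Hs3st3b1. In Rx-Dicer samples they summed to 1650, 1350 and 1210 CPM, an order unlike that of the pair, which was lowest in Rx-Dicer 1. These sums lay within the control range, and 0 of 8 markers were called. In that list Lum did not overlap, with 3887, 2147 and 3250 counts in the controls and 5060, 3891 and 4814 in Rx-Dicer samples (DESeq2 adjusted p = 0.10). The 6 markers of surface and olfactory epithelium summed to 63, 16.4 and 50.4 CPM in the controls and 45.6, 25.8 and 29.7 CPM in Rx-Dicer samples, with 0 of 6 called. Within that list, Krt5 had 130.7, 5.09 and 196.3 counts in the controls and 3.80 to 18 in Rx-Dicer samples, and Trp63 had 317.6, 6.11 and 143.7 against 24.9, 4.08 and 1.90. Control 2, where both were as low as in Rx-Dicer samples, had 442 counts of Hs3st3a1 and 592.8 of Hs3st3b1.

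Other marker lists moved with genotype in part. The 5 neuron markers summed to 1200 to 1600 CPM in the controls and 952 to 1360 CPM in Rx-Dicer samples, with 0 of 5 called, and Elavl3 among them did not overlap, with 7055 to 8197 counts in the controls and 4500 to 6669 in Rx-Dicer samples (DESeq2 adjusted p = 0.152). The 6 endothelial markers summed to 145 to 146 CPM in the controls and 79.3 to 203 CPM in Rx-Dicer samples, also with 0 called. The 5 erythroid markers ranged from 9960 to 22200 CPM in controls and from 8430 to 22000 CPM in Rx-Dicer samples, with 0 called. Microglial markers summed to 22 to 26.3 CPM in the controls and 87.2, 26.6 and 51.4 CPM in Rx-Dicer samples, with 2 of 5 called higher (Csf1r and Cx3cr1). Among 5 subpallial markers, 0 were called, and Nkx2-1 did not overlap, with 3.66, 51.9 and 191.6 counts in the controls and 682, 1882 and 1307 in Rx-Dicer samples (DESeq2 adjusted p = 0.0549). Of the telencephalic markers, Pax6 was called lower, with a log2 fold change of -0.43 ± 0.12. The part that these markers, and the cells or borders of the dissection they stand for, had in the difference of Hs3st3a1 and Hs3st3b1 was not tested.

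Levels of different genes were compared as CPM per kb of exon, scaled with the same size factors. In controls Ndst1 was highest at 20.5 ± 2.54 (SD, n = 3), followed by Hs2st1 at 12 ± 2.58 and Hs6st1 at 10.2 ± 1.40, whose ranges overlapped. Ndst2 at 5.61 ± 0.240, Hs6st2 at 4.96 ± 1.2, Hs3st3b1 at 4.84 ± 2.06 and Hs3st3a1 at 4.02 ± 1.37 followed, each overlapping the next. Hs3st1 at 1.47 ± 0.288 was below all of these, and Hs6st3 and Hs3st2 were at 0.0379 and 0.0024. In Rx-Dicer samples the upper part of the order was alike, with Ndst1 at 20.6 ± 1.41, Hs2st1 at 12.8 ± 1.85 and Hs6st1 at 11.6 ± 0.877. Hs6st2 at 6.12 ± 0.805 overlapped Ndst2 at 5.87 ± 0.317. Hs3st3b1, at 2.13 ± 0.331, no longer overlapped the Ndst2 and Hs6st2 levels, and Hs3st3a1 at 1.36 ± 0.284 now overlapped Hs3st1 at 1.17 ± 0.361.

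Summed per length over the 10 genes, the level was 63.5, 62.5 and 64.8 in the controls and 64.5, 60.0 and 60.9 in Rx-Dicer samples. The family sum thus overlapped between genotypes. The 3-O genes summed to 10.3, 7.15 and 13.5 in the controls and 4.35, 4.89 and 4.76 in Rx-Dicer samples. Their share of the family was 16.2% ± 4.72 in the controls and 7.57% ± 0.736 in Rx-Dicer samples, without overlap, and 7.28% without the library labelled Rx-Dicer 2. The 6-O genes summed to 15.4, 15.6 and 14.5 in the controls and 17.4, 16.9 and 19.1 in Rx-Dicer samples, again without overlap, although each of their genes overlapped on its own. Their share was 23.9% ± 1.38 and 28.9% ± 2.19. Of single genes tested, 8.55% lay wholly above the controls, and nothing is read from the 6-O sum in a family chosen on this contrast. The Ndst share of 41.0% ± 4.54 and 42.9% ± 2.33 and the 2-O share of 18.9% ± 4.19 and 20.6% ± 2.20 overlapped. Most of the 3-O level in controls came from Hs3st3b1 and Hs3st3a1 (4.84 and 4.02, against 1.47 for Hs3st1). The lower 3-O share thus restates the decrease of these genes, in a family chosen on this contrast, and is no separate result. All shares are parts of the same sum, so a lower 3-O share by itself raises the others. These shares describe mRNA in the tissue, not sulfate on chains.

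**Figure D2:**
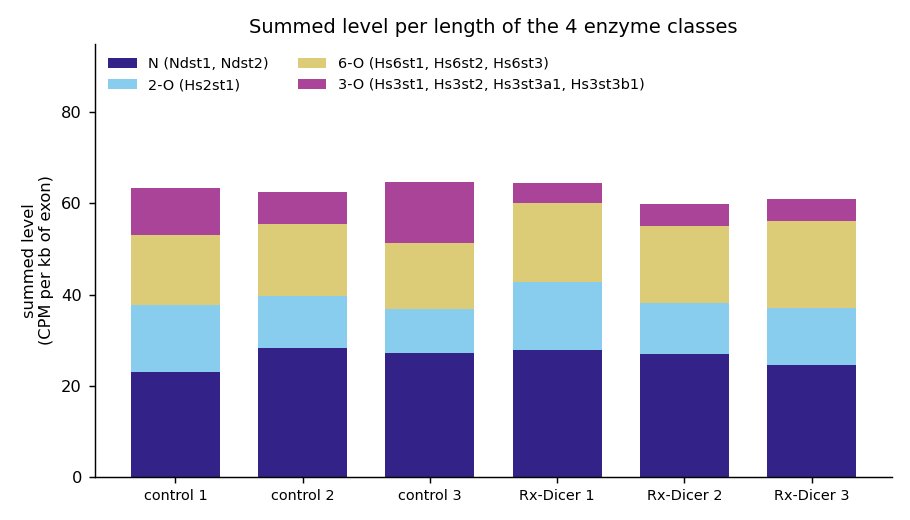
Summed level per length (CPM per kb of exon) of the 4 enzyme classes, stacked, with 1 bar per sample. The 3-O segment is 7.15 to 13.5 high in the controls and 4.35 to 4.89 high in Rx-Dicer samples, while whole bars lie between 60.0 and 64.8.

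The estimated decrease was larger for Hs3st3a1 than for Hs3st3b1, but their intervals overlapped (-2.06 to -1.06 and -1.71 to -0.67). The ratio of their levels per length, Hs3st3a1 over Hs3st3b1, was 0.854, 0.930 and 0.775 in the controls and 0.608, 0.675 and 0.629 in Rx-Dicer samples. The ratio did not overlap between genotypes (0.853 ± 0.0775 and 0.637 ± 0.0343). Hs3st3a1 was known beforehand to be among the strongest decreases, so nothing is read from this ratio. Their annotated transcripts share 302 words of 100 bases, the read length, which is 7.86% of the words of Hs3st3a1 and 6.28% of those of Hs3st3b1. No other pair of members shared such a word. Reads with several placements were not counted, and how many reads of these genes were lost that way was not measured.

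Both genes lie on chromosome 11, with 513041 bases between them. Of 11 annotated genes with counts that lie between them or within 500 kb of either, 5 could be tested, and 1 was called, by DESeq2 with Benjamini-Hochberg adjustment. Over all 17128 genes tested, 1.75% were called higher and 1.18% lower. The window was placed around genes chosen with this contrast known, so nothing is read from the count. The called neighbour was 2810001G20Rik (ENSMUSG00000087497, GRCm38 chr11:64079484-64083259, plus strand), a noncoding RNA annotated as antisense that starts beside the 5′ end of Cox10. It had 707.2, 675.2 and 700.8 counts in the controls and 446, 400.4 and 405 in Rx-Dicer samples, so that replicates lay close together and the genotypes far apart. It was at -0.73 ± 0.14 on the log2 scale, or 1.66-fold lower (DESeq2 adjusted p = 7.3e-05), and all 3 Rx-Dicer values were below all controls. The adjusted p ranged from 9.0e-06 to 0.0895 over 16 alternatives, and the highest came from edgeR's quasi-likelihood test. Without the library labelled Rx-Dicer 2 the log2 fold change was -0.70. 2810001G20Rik lies 157193 bases from Hs3st3b1 and 352072 bases from Hs3st3a1. Reads were counted by strand, so those of Cox10 on the minus strand are apart from it. Cox10, needed to assemble cytochrome c oxidase, had a log2 fold change of -0.24 ± 0.13 (DESeq2 adjusted p = 0.438). The pseudogene Hmgb1-ps3 was at -0.22 ± 0.29, Elac2 at -0.02 ± 0.13 and Arhgap44 at 0.32 ± 0.16, and none of them was called. The Rx-Dicer values of Cox10 were all below the controls and those of Arhgap44 all above them, while Hmgb1-ps3 and Elac2 overlapped. Over all genes tested, 10.7% lay wholly below the controls in this way and 8.55% wholly above.

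**Figure D3:**
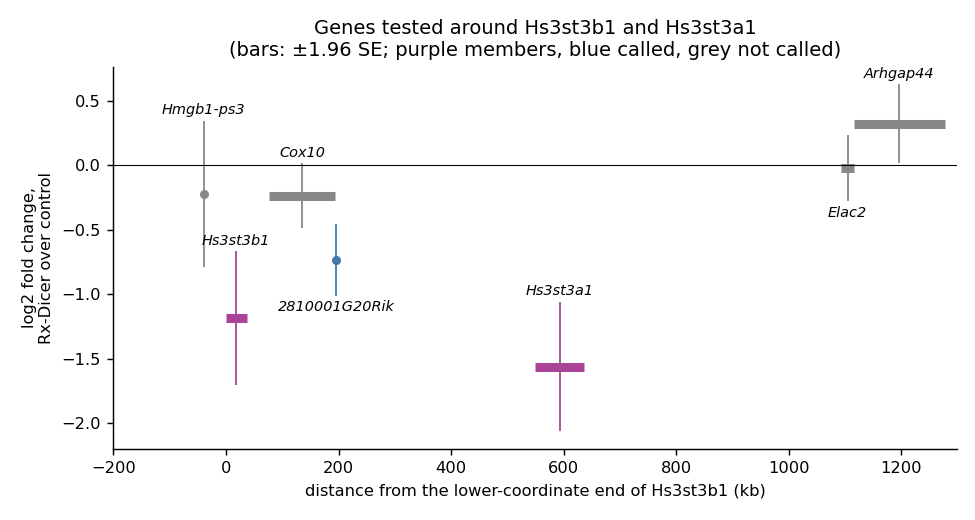
Log2 fold change (Rx-Dicer over control, bars spanning the 95% interval) of the tested genes around Hs3st3b1 and Hs3st3a1, against distance in kb from the lower-coordinate end of Hs3st3b1, with horizontal bars spanning each gene. The members (purple) and 2810001G20Rik (blue) lie below 0 with their whole bars, and the 4 other neighbours (grey) were not called.

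The promoters of these 3 genes are shown because the genes stand on the same stretch of chromosome 11 and were all lower in Rx-Dicer samples. Each sequence runs from 250 bases before to 50 bases after the annotated start (RefSeq, GRCm38.p6, 5′ to 3′ along the gene), and RefSeq had such an entry for 9 of 10 members. Capitals mark matches on either strand to 5 motif words chosen after the sequences had been seen. The word CCAAT is the CCAAT box, the word GGGCGG the GC box, and the word TATAAA the TATA box. The word CACGTG is a form of E-box, and the word TGACGTCA is the cyclic AMP response element.
Hs3st3b1 (chr11:63922235-63922534, minus strand): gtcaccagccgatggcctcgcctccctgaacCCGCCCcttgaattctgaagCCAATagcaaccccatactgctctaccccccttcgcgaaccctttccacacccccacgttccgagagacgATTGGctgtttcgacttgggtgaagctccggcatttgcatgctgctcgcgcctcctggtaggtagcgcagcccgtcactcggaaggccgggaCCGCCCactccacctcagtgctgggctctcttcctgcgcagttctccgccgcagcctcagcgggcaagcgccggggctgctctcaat
2810001G20Rik (chr11:64079234-64079533, plus strand): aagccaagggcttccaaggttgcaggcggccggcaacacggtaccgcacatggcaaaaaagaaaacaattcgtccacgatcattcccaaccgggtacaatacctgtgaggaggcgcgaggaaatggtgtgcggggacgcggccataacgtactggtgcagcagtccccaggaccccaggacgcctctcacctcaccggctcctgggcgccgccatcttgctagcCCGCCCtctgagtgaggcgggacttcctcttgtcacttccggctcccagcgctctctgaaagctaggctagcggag
Hs3st3a1 (chr11:64435082-64435381, plus strand): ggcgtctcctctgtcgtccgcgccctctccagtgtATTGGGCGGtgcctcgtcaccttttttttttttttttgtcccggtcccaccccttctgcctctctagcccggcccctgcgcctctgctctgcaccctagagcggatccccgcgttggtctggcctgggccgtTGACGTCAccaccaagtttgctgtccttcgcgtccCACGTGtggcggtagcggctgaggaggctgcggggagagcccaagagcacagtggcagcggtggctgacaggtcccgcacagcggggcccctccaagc
The Hs3st3b1 window held 2 matches to CCAAT and 2 to GGGCGG, and the 2810001G20Rik window 1 to GGGCGG. In the Hs3st3a1 window the match to CCAAT overlaps the match to GGGCGG, and there was 1 match each to CACGTG and TGACGTCA. The word TATAAA was in none of them. GGGCGG, shared by all 3, was found in 35.9% of 27025 promoters of the same length, CCAAT in 37.9%, TATAAA in 14.2%, CACGTG in 7.24% and TGACGTCA in 1.88%. The windows held 63.7%, 61.3% and 65.3% G and C. A match is a string of letters and says nothing about binding in this tissue.

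Since Dicer makes mature miRNAs, the annotated 3′ UTRs of the members were searched for the complement of the seed of 4 miRNAs. Their mature sequences (RefSeq) follow, with the seed, bases 2 to 8, in capitals, and no seed is shared among them. The planned search for miR-124-3p was not run. According to the study, most mature miRNAs that were significantly lower in Rx-Dicer embryos at E11.5 belonged to the let-7 family. It also showed reduced miR-9 in the rostral telencephalon by in situ hybridisation at later ages. Levels of the 4 miRNAs in this tissue were not examined here.
let-7a-5p: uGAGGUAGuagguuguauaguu
miR-9-5p: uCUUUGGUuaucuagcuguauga
miR-92a-3p: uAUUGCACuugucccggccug
miR-17-5p: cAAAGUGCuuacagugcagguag
Matches were few. The let-7 word CTACCTC was in 2 of 10 members, against 10.7% of 14300 expressed genes with an annotated 3′ UTR. The miR-17 word GCACTTT was in 2 members (14.5% of genes), the miR-9 word ACCAAAG in 1 (14.2%) and the miR-92a word GTGCAAT in 0 (7.66%). The median 3′ UTR of the members was 2123 bases, against 1207 over the expressed genes, and the members ranged from 221 to 4782. The matched sites are printed with 7 bases on either side and the match in capitals (GRCm38, GENCODE transcripts, all on the minus strand), to show which members hold one. The site of miR-17-5p in Ndst1 is not printed.
Ndst2, let-7a-5p (chr14:20724128-20724134): tacccctCTACCTCagtggcc
Hs2st1, let-7a-5p (chr3:144432069-144432075): agttcctCTACCTCccatgtc
Hs2st1, miR-17-5p (chr3:144433136-144433142): gcgaagaGCACTTTaaaactg
Hs3st3b1, miR-9-5p (chr11:63888423-63888429): atgacacACCAAAGagtctcc
Ndst2 and Hs2st1, which hold the let-7 words, had log2 fold changes of 0.066 and 0.086. Hs3st3b1 holds a miR-9 word in a 3′ UTR of 3335 bases and was lower, and Hs3st3a1 holds none of the 4 words in 2022 bases and was lower as well.

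By pattern over the 6 samples, Hs3st3a1 and Hs3st3b1 were among the nearest genes to each other. Likeness was the root mean square difference of log2(normalised count + 1), centred on each gene's mean, among 12895 genes with a mean of at least 100. For Hs3st3a1 the nearest were Col25a1, a membrane collagen of neurons, at 0.223, Hs3st3b1 at 0.226 and Gjd2, the gap junction gene of connexin 36, at 0.362. Col25a1 had 662, 457.3 and 607.8 counts in the controls and 149.2, 201.7 and 172.1 in Rx-Dicer samples. For Hs3st3b1 the nearest were Gm9242 at 0.199, Hs3st3a1 at 0.226 and Gjd2 at 0.237. The 6 samples share the genotype split, so that any gene with a similar difference comes close.

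The rest of the pathway was taken from a list of 50 genes for precursor supply, the linker, chain synthesis, chain editing, core proteins and related sulfotransferases. Of these, 47 were tested by DESeq2 with Benjamini-Hochberg adjustment over all genes. There were 2 calls higher (4.26% of those tested, against 1.75% of all genes tested), 1 lower (2.13%, against 1.18%), and a median log2 fold change of 0.065. At an unadjusted p under 0.05 there were 6 by DESeq2 and 6 by edgeR's quasi-likelihood test, which called 0 (2324 and 2313 over all genes).

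All 3 calls were core proteins, the proteins to which the chains are attached. Col18a1, the basement membrane collagen XVIII, had 8191, 7859 and 6935 counts in the controls and 13348, 10708 and 9896 in Rx-Dicer samples, and rose by 0.56 ± 0.14 on the log2 scale (DESeq2 adjusted p = 0.0080). Hspg2, which encodes perlecan of basement membranes, had 4999, 5130 and 4890 in the controls and 8435, 6717 and 5817 in Rx-Dicer samples, and rose by 0.48 ± 0.15 (DESeq2 adjusted p = 0.0446). Gpc1, a glypican anchored in the cell membrane, had 16940, 23011 and 19271 in the controls and 15445, 12716 and 14656 in Rx-Dicer samples. Its log2 fold change was -0.47 ± 0.14 (DESeq2 adjusted p = 0.0446). In all 3 genes the genotypes did not overlap. Of 16 alternatives, the call was lost in 4 for Col18a1 (adjusted p 0.0027 to 0.165), in 9 for Hspg2 (0.0039 to 0.206) and in 8 for Gpc1 (0.0064 to 0.316). Without the library labelled Rx-Dicer 2, Col18a1 was called (DESeq2 adjusted p = 0.0119), and Hspg2 (0.0726) and Gpc1 (0.172) were not. Endothelial markers, a possible mark of vessel content, varied among Rx-Dicer samples as given above, and their part in these differences was not tested.

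**Figure D4:**
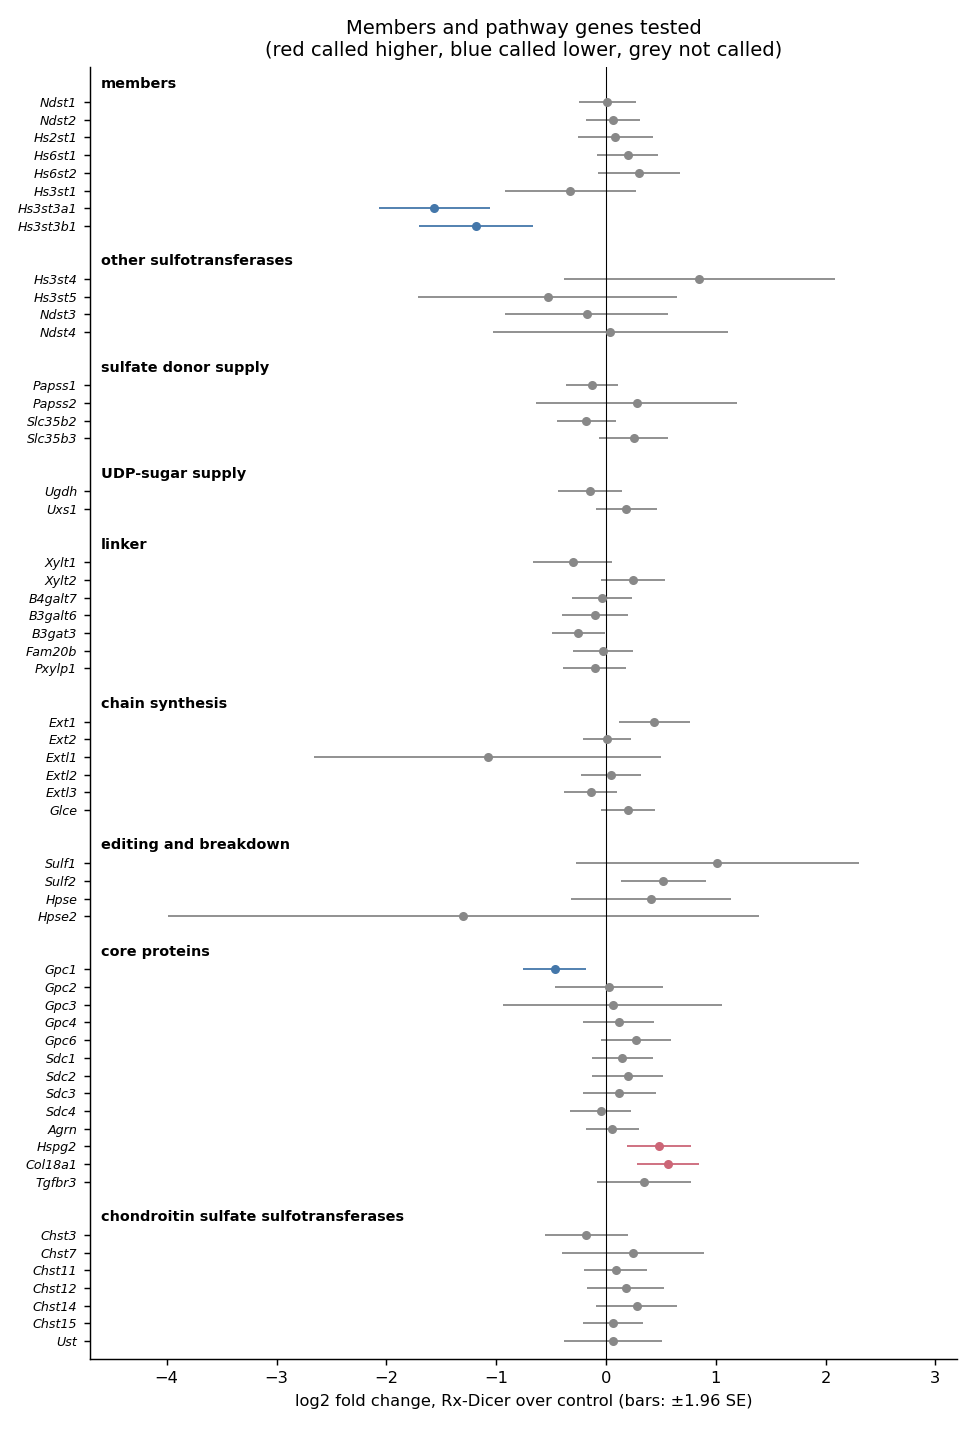
Log2 fold change (Rx-Dicer over control) with bars spanning the 95% interval for the 8 tested members and the 47 tested pathway genes, grouped by role. Called genes are Hs3st3a1, Hs3st3b1 and Gpc1 (blue, lower) and Hspg2 and Col18a1 (red, higher), and the other genes, in grey, were not called.

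In the remaining groups 0 genes were called, and those with the largest differences were as follows. Of the other 3-O genes, Hs3st4 had a log2 fold change of 0.85 ± 0.63 and Hs3st5 of -0.53 ± 0.60, both at under 50 counts in every sample. Among enzymes that edit finished chains, the 6-O-endosulfatase Sulf1 was at 1.01 ± 0.66. Its counts were 2734, 544.9 and 1319 in the controls and 3264, 4043 and 1980 in Rx-Dicer samples, which overlapped. Sulf2 of the same group had a smaller but less variable difference, at 0.52 ± 0.20 (DESeq2 adjusted p = 0.139). Its counts were 10330, 5917 and 7324 in the controls and 13306, 9784 and 10785 in Rx-Dicer samples, which overlapped too. Hpse2, a heparanase relative that binds the chains, was at -1.30 ± 1.37 and rested on control 3, with 386.1 counts against 13.4 to 126.1 in the other libraries.

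Chain synthesis genes included Ext1, a subunit of the polymerase, at 0.44 ± 0.17 (DESeq2 adjusted p = 0.143, range 1.6e-04 to 0.589 over 16 alternatives). Ext1 was called higher only without control 1, at 0.64. Extl1, a relative that adds N-acetylglucosamine, was at -1.08 ± 0.81 with under 25 counts in any sample. Of the linker enzymes, Xylt1, which starts the linker, was at -0.30 ± 0.18, and B3gat3, which completes it, at -0.25 ± 0.12. Of the genes for the sulfate donor, Papss2, which makes it, was at 0.28 ± 0.47, and Slc35b3, which carries it into the Golgi, at 0.25 ± 0.16. The precursor sugar genes Ugdh and Uxs1 were at -0.15 ± 0.15 and 0.19 ± 0.14.

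The chondroitin sulfate sulfotransferases, the family most like the members, gave 0 calls among 7 of 8 genes tested, with a median log2 fold change of 0.087. The largest differences were those of Chst14, which sulfates dermatan, at 0.28 ± 0.19, and Chst7, a chondroitin 6-O-sulfotransferase, at 0.24 ± 0.33. Both overlapped between genotypes. Whether the 3-O genes of heparan sulfate differ from this family in their response was not tested.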

How the data were processed

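Read counts per gene of 6 samples were analysed, 3 per genotype. The deposited values were raw counts. Per the submitters' processing notes, the authors used FastQC 2.6.14, Trim Galore 0.6.5, HISAT2 and HTSeq 0.12.4, with genome build GRCm38.p6, and reads were counted by strand in union mode. Reads that fell on several genes or placements were not counted, so near-identical genes can be undercounted. In the files 24.9 to 31.0% of all entries were not assigned to a gene. These include the 5.62 to 6.65% with several placements and the 1.51 to 1.87% that fell on several genes. These entries were left out of library sizes.

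Each sample had 2 files, summed as repeat runs (chi-square per degree of freedom 1.13 to 1.52 within samples and 22.5 to 32.6 between samples), which gave 34471501 to 48373468 counts per sample. Of 55471 identifiers, 55230 were found in the GENCODE annotation used here. Genotypes were compared over all genes by DESeq2 1.42.0 in R 4.3.3 (Wald test), after the methods of the study, with median-of-ratios scaling, unshrunken log2 fold changes, Benjamini-Hochberg adjustment and independent filtering. Genes were called at an adjusted p below 0.05 if they changed over 1.25-fold. Levels per length used the union of annotated exons. Intervals are ± 1.96 SE. Floors cover counting error only, because PCR copies could not be told from separate molecules.

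The members, the pathway list and the marker lists were chosen with earlier results of these data known. Genes named were all members, called pathway genes, the 2 with the largest change of each pathway group (mean of at least 10), called neighbours, the 3 genes nearest in pattern to Hs3st3a1 and to Hs3st3b1, and Dicer1. Other neighbours tested, Sulf2, and the markers given with values, were named after their values had been seen.

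Alternatives were edgeR's quasi-likelihood test (edgeR 4.0.16, TMM, at least 10 counts in 3 samples), other scalings, filters and thresholds, each run alone, the longest transcript as length, the replicate number as a block, and each sample left out. The steps were tested on simulated data. The values of 1 marker and the sum over its list are not reported here. Small RNA data were not used here.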

Additional observations from a re-analysis of the deposited data

How the results depend on the processing

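Over all genes, 502 calls became 8 with edgeR's quasi-likelihood test, 322 without independent filtering, 297 at a fold minimum of 1.5, and 285 to 637 when each sample was left out (285 without control 2, 309 without Rx-Dicer 3). Calls of lower members were 2, and 0 with edgeR, where adjusted p-values over all genes no longer passed although log2 fold changes moved little (-1.55 for Hs3st3a1 and -1.18 for Hs3st3b1). They were 1 to 2 when each sample was left out, and 1 without control 3. Over 16 alternatives the log2 fold change was -1.79 to -1.29 for Hs3st3a1 and -1.45 to -0.82 for Hs3st3b1. Pathway calls were 2 higher and 1 lower. They became 0 and 0 with edgeR, 1 and 0 without independent filtering, 0 and 0 at a fold minimum of 1.5, and 0 to 3 and 0 to 1 when each sample was left out (both 0 without control 2 and without control 3). The neighbour call, 1, became 0 with edgeR. Changes of sign were seen in genes that were not called, when each sample was left out. Among named pathway genes, Hs3st5 ranged from -0.88 to 0.010 (without control 1) and Papss2 from -0.084 (without control 2) to 1.07. Hpse2 ranged from -2.43 to 0.98 (without control 3) and Chst7 from -0.049 (without Rx-Dicer 1) to 0.57. Of the members, Ndst1 ranged from -0.085 (without control 1) to 0.085 (without control 2). Hs2st1 ranged from -0.046 (without control 3) to 0.26 (without control 1). Hs6st3 and Hs3st2, near the limit of detection, changed sign too. With the longest transcript as length, the 3-O share was 12.9% in the controls and 6.04% in Rx-Dicer samples. With that length 2 members, Hs6st2 and Ndst2, changed places in the control order. When each control was left out, 0 to 4 members changed places in the control order (4 without control 2). The order in Rx-Dicer samples was not checked in this way. The cause of these changes was not tested, except that leaving out a sample also leaves fewer samples.

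Same-numbered samples of the genotypes are different animals. Their deviations correlated at -0.285 to 0.269, against -0.262 to 0.346 for other pairs, so the numbers were not taken as pairs. The highest values were control 3 with Rx-Dicer 2 (0.346), control 2 with Rx-Dicer 3 (0.270) and control 1 with Rx-Dicer 1 (0.269). The study compared mutants with control littermates, but which samples shared a litter is not stated, and pairing by litter was not tested. With the replicate number as a block there were 314 calls over all genes, 0 lower pathway calls, and 2 lower members as before.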
